A study of Drosophila melanogaster with 12 samples.

Results

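High-sugar feeding was compared with control feeding in the larval fat body over both sugars at once, with 6 high-sugar libraries set against 6 control libraries. The 12 libraries are all those of the series, and each sugar contributed 3 libraries at each concentration. Control diets held 0.3 M fructose (CFD) or 0.3 M glucose (CGD), and high-sugar diets held 1.7 M fructose (HFD) or 1.7 M glucose (HGD). All 9500 genes of the deposited table were tested, with sugar as a blocking term, so that a fructose library was only ever compared with fructose libraries and a glucose library with glucose libraries. The question was which changes are shared by both sugars but too small to be called from 3 against 3 libraries.

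All larvae had the same genotype on every diet. Males of the w1118 stock of the Vienna collection were crossed to virgin females carrying UAS-Dcr2 and r4-GAL4, and the fat bodies of their female offspring, as wandering larvae of the third instar, were sheared, spun down and frozen. The r4-GAL4 line drives transgenes in the fat body, so controls and high-sugar larvae alike carried the Dicer-2 transgene under a fat body driver. The growth notes also mention double-stranded RNA against InR, the insulin receptor, but the cross they name carries no such transgene. The change of InR itself did not pass the threshold (0.31 ± 0.12 on the log2 scale, limma adjusted p = 0.0555). Dcr-2, the Dicer-2 gene, had values of 35277 to 61475 over the 12 libraries and a change of 0.38 ± 0.17 on the log2 scale that did not pass it either (adjusted p = 0.0769).

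The fat body is the larval organ that stores glycogen and triglyceride, makes haemolymph proteins and senses nutrients, with roles that mammals divide between liver and adipose tissue. In a feeding larva it secretes large amounts of storage protein, so its cells rely on the translation, secretory and protein turnover machinery. When sugar is in excess, this tissue turns part of it into fat through a lipogenic programme under the sugar-sensing factor Mio with its partner bigmax.

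Values are reads adjusted by the authors to a common library size, and differences are given as log2(value + 1), high sugar minus control, with a standard error (SE) from the fit. The adjustment was made separately for each sugar. Fructose and glucose values may therefore differ by a constant scale, and their order across the sugars carries no weight. A gene was called when its Benjamini-Hochberg adjusted p over 9500 genes fell under 0.05, and a called change was termed modest when it was under 1.5-fold. Whole reads recovered from the values gave 3484911 reads in HFD 2 and 6916320 to 11134928 in the other 11 libraries. HFD 2 also stood apart in CR41548, a ribosomal RNA gene, which took 8.67% of its reads against 0.0164% to 0.306% elsewhere. Without HFD 2, 3751 genes were called and 1337 of them were modest.

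Over both sugars, 4003 of 9500 genes (42.1%) were called, of which 2024 (21.3%) rose and 1979 (20.8%) fell with high sugar. Modest changes made up 1532 of them, or 16.1% of all genes, with 956 genes (10.1%) higher and 576 (6.06%) lower. Separate 3 against 3 comparisons called 1672 genes (17.6%) for fructose and 2469 (26.0%) for glucose, and only 172 (1.81%) and 269 (2.83%) of all genes were modest calls there. The single-sugar counts leaned on few libraries, with 906 genes for fructose without HFD 2 and 1035 without CFD 2, and 1363, 1337 and 1626 for glucose without CGD 1, CGD 2 or HGD 3. The median SE was 0.156 with both sugars together, against 0.209 for fructose and 0.22 for glucose.

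The gain lay mostly in the small changes. When genes were banded by the size of their change, 1355 of 2297 (59%) in the band that ends at 1.5-fold were called over both sugars. Of the 1355, 697 were called in neither single-sugar comparison. In the band of smaller changes below it only 177 of 4437 genes (3.99%) were called, so most genes under 1.5-fold were not called. Among genes that changed by more than 4-fold, 195 of 196 were called, and none of them was missed by both single-sugar comparisons. In all, 1249 genes (13.1%) were called only with both sugars together, 593 higher and 656 lower, with a median change of 1.38-fold. Of these, 864 changed by under 1.5-fold, 309 by 1.5-fold to 2-fold and 76 by 2-fold to 4-fold. All 1249 moved in the same direction under fructose and under glucose, a direction that the joint fit largely sets. Conversely, 144 genes were called in 1 single-sugar comparison and not in the joint one.

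**Figure D1:**
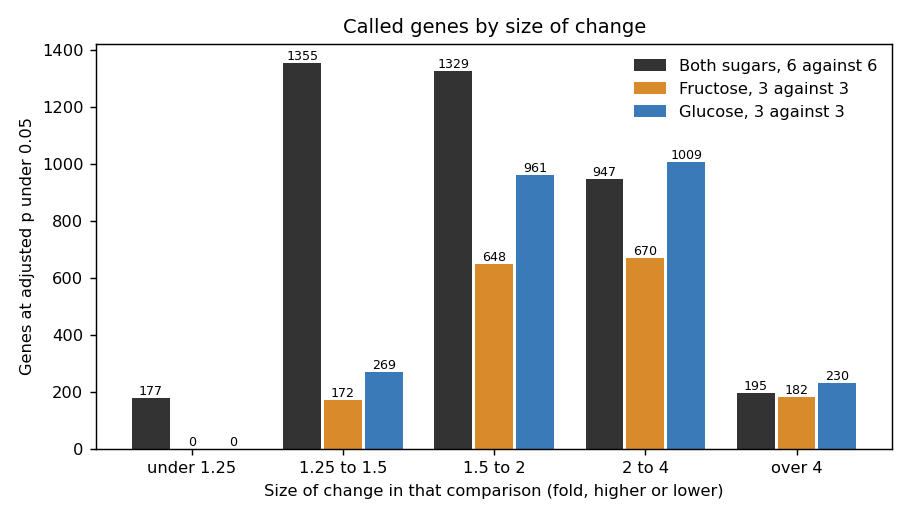
Number of genes called at adjusted p under 0.05 (y axis) by the size of the change in the same comparison (x axis, fold higher or lower) for both sugars together, fructose alone and glucose alone. In the band that ends at 1.5-fold the joint comparison called 1355 genes, against 172 for fructose and 269 for glucose. In the band of smaller changes below it the counts were 177, 0 and 0, while above 4-fold the bars were 195, 182 and 230.

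A stricter description needs no model. In 2440 genes (25.7%) all 3 high-sugar libraries lay on the same side of all 3 control libraries for fructose and again for glucose in the same direction, 1323 (13.9%) higher and 1117 (11.8%) lower. Of the 1532 modest calls, 670 met this description. The response to fructose and the response to glucose were also compared with each other, and limma called 0 genes, with 408 genes at an unadjusted p under 0.05 and a smallest adjusted p of 0.934. The SE of that difference had a median of 0.311, so differences between the sugars of the size of the modest changes themselves were not detectable at this depth of replication. No other tool was run on it.

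The modest rises with the smallest adjusted p, among non-overlapping genes called only over both sugars and with a mean value of at least 100, included genes of translation termination, membrane traffic and acidification. Lack of overlap within a sugar and lack of a single-sugar call were conditions of choice. This holds for this set, the most abundant genes and the modest falls below. For these genes they are therefore no separate evidence of a consistent change. Gl encodes the large subunit of dynactin, which links dynein to its cargo. In fructose-fed larvae its values were 383, 395 and 413 on CFD and 483, 537 and 488 on HFD. In glucose-fed larvae they were 417, 420 and 450 on CGD and 525, 589 and 548 on HGD. Every high-sugar library exceeded every control library of its own sugar, at 1.28-fold (log2 0.35 ± 0.079, adjusted p = 0.00252).

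Both eRF1, the release factor that recognises stop codons, and pelo, its relative that frees stalled ribosomes, rose. The eRF1 values were 872, 795 and 788 on CFD, 1064, 1151 and 999 on HFD, 929, 855 and 950 on CGD, and 1331, 1070 and 1214 on HGD. Within each sugar the lowest high-sugar library stood above the highest control library, with a change of 1.31-fold (log2 0.39 ± 0.087, adjusted p = 0.00224). For pelo the values were 157, 168 and 157 on CFD, 202, 192 and 204 on HFD, 167, 179 and 180 on CGD, and 229, 242 and 236 on HGD. Here too all high-sugar libraries lay above the controls of their own sugar, at 1.29-fold (log2 0.37 ± 0.083, adjusted p = 0.00268).

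Vha16-1, the proteolipid subunit of the vacuolar proton pump, was one of the most abundant genes of this class. Its values were 4812, 6083 and 5383 on CFD and 7661, 8084 and 7164 on HFD. With glucose they were 4983, 4804 and 5956 on CGD and 8320, 6551 and 7891 on HGD. The high-sugar libraries again exceeded the controls of their own sugar (1.43-fold, log2 0.51 ± 0.11, adjusted p = 0.00195). Neither sugar passed alone, with an adjusted p of 0.0517 for fructose and 0.0720 for glucose. Gdi, which recycles Rab GTPases between membranes, showed how a single library can widen a group. Its values were 2880, 2613 and 2470 on CFD, 3327, 3798 and 3679 on HFD, 2542, 2542 and 3649 on CGD, and 4837, 4288 and 3735 on HGD. CGD 3 lay far above the other CGD libraries and just under the lowest HGD library, and the change was 1.42-fold (log2 0.51 ± 0.12).

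The other members of this set were Tsp42Ef, a tetraspanin (1.32-fold), foi, a zinc transporter (log2 0.41 ± 0.094), Mer, the fly merlin (0.43 ± 0.098), Ide, the insulin-degrading metalloprotease (0.43 ± 0.099), and Ady43A (0.44 ± 0.10). Ide had values of 166, 186 and 185 on CFD, 225, 279 and 229 on HFD, 182, 178 and 221 on CGD, and 281, 253 and 238 on HGD. Its control and high-sugar values did not overlap within a sugar, with 221 as the highest CGD and 238 as the lowest HGD library. Across these 10 genes the high-sugar libraries lay 0.185 to 0.754 above the mean of their own sugar's controls, while single control libraries scattered from -0.196 to 0.348 around it.

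The most abundant genes of the same class belonged to the translation machinery. Ef1alpha48D, the main elongation factor that brings aminoacyl-tRNA to the ribosome, had values of 72977, 76065 and 75586 on CFD and 109440, 112710 and 98020 on HFD. With glucose it had 71890, 78591 and 87769 on CGD and 100210, 118310 and 120030 on HGD. The groups did not overlap, and the change was 1.42-fold (log2 0.51 ± 0.18, adjusted p = 0.0336). RpLP0, a protein of the ribosomal stalk, rose by 0.47 ± 0.14 on the log2 scale, and RpS7, RpS29 and RpS23 of the small subunit had changes of 0.40 ± 0.13, 0.43 ± 0.14 and 0.42 ± 0.13. These calls were thin. None of the 5 was called with library totals or after cyclic loess, and only RpLP0 (adjusted p = 0.223 and 0.204 there) kept its call on leaving out each library. Ef1alpha48D was lost on leaving out any 1 of 7 libraries (adjusted p up to 0.0740) and RpS7 any 1 of 5, RpS23 without CGD 2 or HGD 3, and RpS29 without CGD 2.

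Modest falls chosen by the same rule included adhesion, guidance and cytoskeletal genes. Cad87A encodes a cadherin. Its values were 140, 170 and 172 on CFD, 118, 96.8 and 129 on HFD, 212, 214 and 177 on CGD, and 137, 145 and 152 on HGD. Within each sugar the groups did not overlap (0.717-fold, log2 -0.48 ± 0.11, adjusted p = 0.00231). The HGD values overlapped those of CFD, but order across the sugars carries no weight. DAAM, a formin that nucleates actin filaments, had values of 230, 253 and 263 on CFD, 170, 198 and 194 on HFD, 261, 252 and 240 on CGD, and 169, 224 and 181 on HGD. All of its high-sugar libraries lay below the controls of their own sugar (log2 -0.40 ± 0.096, adjusted p = 0.00382).

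The netrin receptor fra had one of the smallest changes in this set. It measured 530, 526 and 564 on CFD and 455, 416 and 424 on HFD. With glucose it measured 581, 602 and 562 on CGD and 427, 403 and 532 on HGD. HGD 2 was the lowest and HGD 3 the highest of the HGD libraries, and the groups did not overlap within a sugar (log2 -0.34 ± 0.088, adjusted p = 0.00602). The ER export receptor cni fell by 0.55 ± 0.13 on the log2 scale, with HFD 2 at 208 against 299 and 347 in the other HFD libraries. HP1c, a heterochromatin protein 1 paralogue, had values of 91.2 to 133 on CFD, 74.9 to 79.4 on HFD, 110 to 139 on CGD and 79.2 to 98.7 on HGD, and changed by -0.48 ± 0.12.

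The remaining falls of this set were Tsp97E, a tetraspanin (-0.44 ± 0.11), Ent2, a nucleoside transporter (-0.43 ± 0.11), Cyp6v1, a cytochrome P450 (-0.40 ± 0.10), Spf45, a splicing factor (-0.56 ± 0.14), and elgi, a ubiquitin ligase (-0.46 ± 0.12). Across the 10 genes the high-sugar libraries lay between -1.13 and -0.073 from their own controls' mean, and the control libraries between -0.268 and 0.331. The most abundant modest falls were CG6767 (-0.39 ± 0.10), the Wnt receptor fz2 (-0.40 ± 0.11), DOR, a coactivator of the ecdysone receptor (-0.41 ± 0.13), aralar1, a mitochondrial aspartate and glutamate carrier (-0.33 ± 0.11), and Mcr, a complement-related surface protein (-0.29 ± 0.094). For fz2 the values were 1741, 1632 and 1706 on CFD, 1451, 1379 and 1028 on HFD, 1914, 1854 and 2316 on CGD, and 1377, 1506 and 1738 on HGD. They did not overlap within a sugar. HGD 3 lay as high as the CFD libraries, an order across sugars that carries no weight. The calls of DOR were lost without CFD 1 or without HGD 2 (adjusted p up to 0.0550), and those of aralar1 on leaving out any 1 of 4 libraries.

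**Figure D2:**
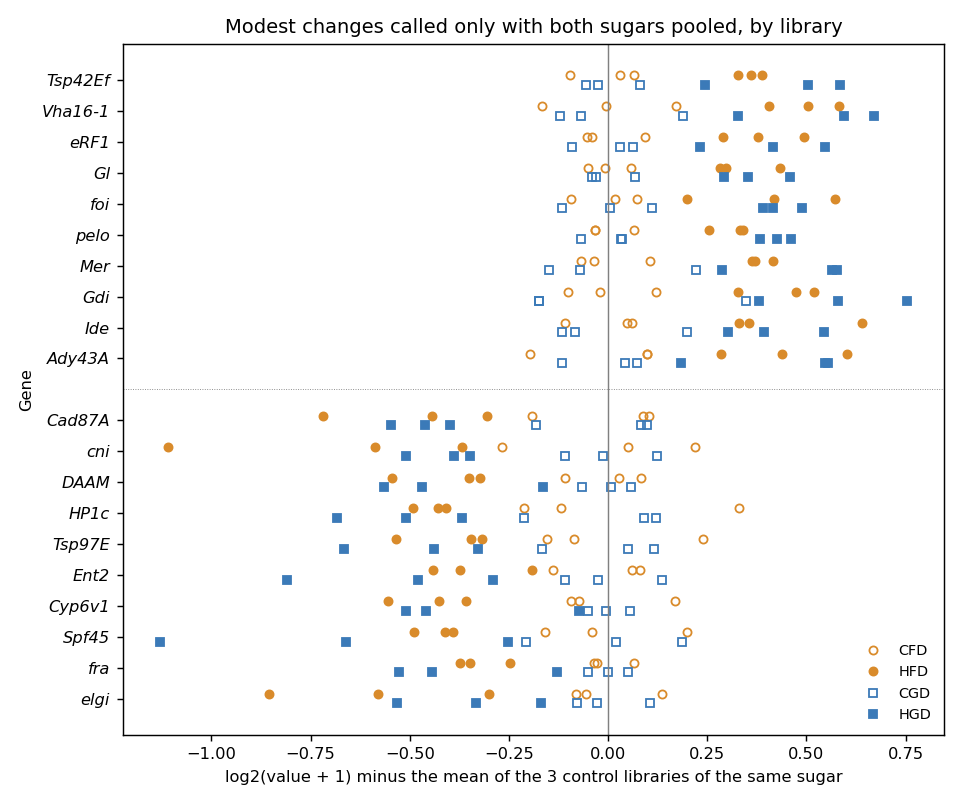
Values of the 10 modest rises and 10 modest falls in each of the 12 libraries, as log2(value + 1) minus the mean of the 3 control libraries of the same sugar (x axis); open symbols are controls and filled symbols high sugar, in orange for fructose and blue for glucose. High-sugar libraries run from 0.185 to 0.754 for the rises and from -1.13 to -0.073 for the falls. No gene has overlapping groups within a sugar, because the genes were chosen on that condition.

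How far these small changes hold depends on how libraries are scaled. Rescaling the values to equal library totals moved the median of all genes to -0.213 on the log2 scale and cut the share of higher genes among the calls from 50.6% to 26.6% (926 higher and 2549 lower). Library totals rest in part on a few abundant genes, with Lsp2 at 8.43%, CR41583 at 7.47% and Fbp1 at 5.35% of the total. With library totals all 576 modest falls kept their call, but only 31 of the 956 modest rises did. None of the 10 modest rises above was called with library totals (adjusted p 0.0562 to 0.398), whereas the 10 falls were called there and under the other 4 scalings tried. Cyclic loess, which removes any trend with expression level, kept 421 of the 956 rises and 372 of the 576 falls, with foi, pelo, Mer and Ide among the rises. All 20 genes remained called on leaving out any single library.

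A trend with expression level ran through the whole comparison. The median change was -0.366 among the least abundant 950 genes and 0.276 among the most abundant 950, and it had the same shape for each sugar alone. Modest rises had a median mean value of 329 and modest falls one of 114, against 103 for all genes. Both were scarce among rare genes, at 0% and 0.105% of the least abundant 950. Between mean values of 102.9 and 311.9 they made up 14.9% and 8.13%. Modest rises had longer transcripts, with a median of 2841 bases, against 2066 for modest falls and 2050 for all genes with a length. Modest rises made up 7.55% of genes on chromosome arm 2L and 11.9% on the X, the range among the 5 large arms. The part of the trend in the rises was not tested beyond the normalizations named.

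**Figure D3:**
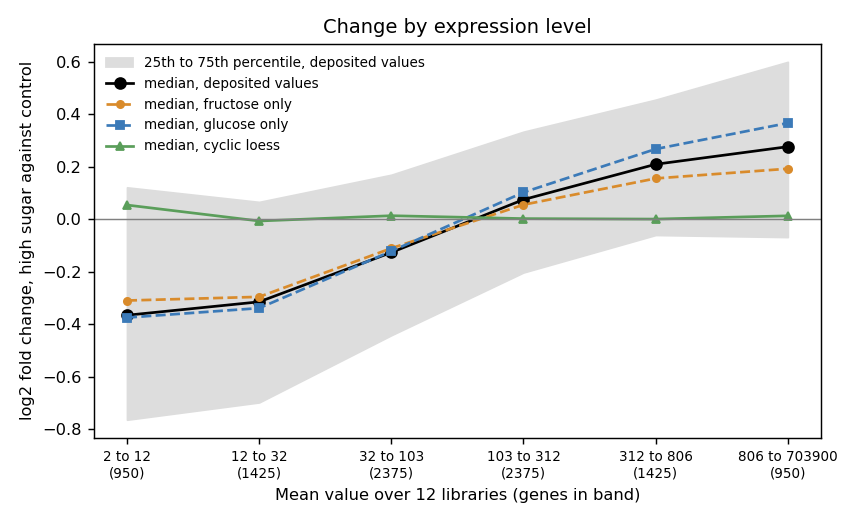
Median log2 fold change of high sugar against control (y axis) in 6 bands of mean value over the 12 libraries (x axis, genes per band in parentheses), with the 25th to 75th percentile in grey. The median climbs from -0.366 to 0.276 for the deposited values and runs alike for fructose and glucose, while after cyclic loess it lies at 0.0537 in the lowest band and 0.0126 in the highest.

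Marker genes of other cell types moved between the concentrations as well. Of 15 muscle markers 13 rose and none fell, with a median of 1.11 and a mean level of 8.705 to 10.24 in controls against 10.45 to 10.90 in high-sugar libraries. Of 9 hemocyte markers 8 fell, among them proPO-A1 and PO45, the prophenoloxidases of crystal cells (-2.35 ± 0.27 and -1.77 ± 0.20), and their mean level was 7.213 to 8.791 in controls and 6.17 to 6.794 in high-sugar libraries. Midgut markers fell in 6 of 10 cases, while the fat body's own 7 markers, at mean levels of 17.01 to 18.73 throughout, had 1 rise and 1 fall. Every marker measured had at least 1 read in each library, but so did all 9500 genes deposited. Of the markers listed, 10 of 16 for midgut and 1 of 5 each for ring gland and germline were among them. Marker changes in bulk tissue cannot be told apart between fewer cells of a type and less RNA per cell.

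The marker levels and the sugar concentration were close to the same variable. Between concentrations lay 81.3% of the within-sugar variance of the muscle level and 84.7% of that of the hemocyte level. With the muscle level as a covariate 830 genes were called and 3 of them were modest, and with the hemocyte level, an alternative added after the data were seen, 523 and 0.

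Gene groups were then described by their counts and medians, with 21.3% of all genes called higher, 20.8% lower and a median of all genes of -0.0086. These shares depended on abundance. Among genes with mean values of 311.9 to 805.6, 39.1% were called higher and 11.2% lower. Among the most abundant 950 they were 43.9% and 11.8%, and among the least abundant 950 they were 5.26% and 23.5%. The lists were not compared with genes of equal abundance. The initiation complex eIF3 prepares the small ribosomal subunit for mRNA. Of its 13 measured subunits 12 rose and none fell, with a median of 0.725, and in each high-sugar library the list lay 0.563 to 0.841 above its own controls. CG5642, listed as an eIF3 subunit, rose from 1033, 948 and 1000 on CFD to 1643, 2186 and 2011 on HFD, and from 951, 969 and 1170 on CGD to 2152, 2026 and 1985 on HGD. Within each sugar the lowest high-sugar value was well above the highest control value, and the change was 1.97-fold (log2 0.98 ± 0.096, adjusted p = 2.22e-06). With library totals 11 of the 13 were still called higher, with a median of 0.517.

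Around eIF3 the changes were smaller and largely modest. Of 19 other initiation factors 10 rose and 1 fell, 8 of these 11 modestly, and eIF-4a, the RNA helicase of cap-dependent initiation, rose by 0.77 ± 0.11 and pAbp, the poly(A)-binding protein, by 1.02 ± 0.16 on the log2 scale. Of 8 elongation and release factors 7 rose, among them Elf, the GTPase that works with eRF1 (0.66 ± 0.094), and Ef2b, the translocase (0.85 ± 0.14). Of 20 aminoacyl-tRNA synthetases, which charge tRNAs with amino acids, 11 rose and none fell, 8 of them modestly, and all 20 had positive values. Aats-asp, the aspartate enzyme, had values of 1220, 1158 and 1163 on CFD, 1780, 1841 and 1755 on HFD, 1245, 1307 and 1572 on CGD, and 1860, 2167 and 1979 on HGD. Its groups did not overlap for either sugar (1.49-fold, log2 0.57 ± 0.088, adjusted p = 0.000134). With library totals the members called higher came down to 4 initiation factors, 3 elongation and release factors and 5 synthetases, and the 3 medians stayed positive at 0.114, 0.299 and 0.136.

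Cytosolic ribosomal proteins gave no direction that survived rescaling. As deposited, 31 of 85 rose, 25 of them modestly, and 2 fell, with a median of 0.244 that became 0.0356 with library totals, -0.0348 after cyclic loess and -0.0676 after quantile normalization. Of the 33 calls, 20 were made only over both sugars. The count of rises came to 17 without CGD 2. The members at the ends of the list kept their calls under each of the 5 scalings. RpS3A of the small subunit rose by 0.86 ± 0.14 on the log2 scale, and RpL41, the smallest protein of the large subunit, had values of 20975, 15495 and 14666 on CFD, 10426, 7135 and 7198 on HFD, 18404, 15829 and 20392 on CGD, and 10668, 8568 and 10002 on HGD. Its groups did not overlap within a sugar, and it fell (0.509-fold, log2 -0.98 ± 0.15, adjusted p = 0.000113). Paralogues with near-identical sequence, such as RpS14a and RpS14b, may share reads and are uncertain.

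The proteasome, which degrades ubiquitinated proteins, showed a modest rise of most members as deposited. Of 31 measured subunits 20 rose and none fell, 18 of them modestly, 7 were called only over both sugars, and all 31 had positive values with a median of 0.313. Grouped after the values were seen, the 18 subunits of the regulatory particle, which recognises and unfolds substrates, held 16 of the rises with a median of 0.432, and the 13 subunits of the proteolytic core held 4 with a median of 0.188. Relative to its own controls the regulatory particle lay at 0.372 to 0.484 in the 6 high-sugar libraries and at -0.0889 to 0.0888 in the 6 controls, with no overlap. With library totals 3 of the 18 were called, with a median of 0.224, while the median of the core turned negative under library totals (-0.0197), cyclic loess (-0.0532) and quantile normalization (-0.058).

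Pros45, an ATPase of the regulatory particle's base, had values of 472, 374 and 454 on CFD and 571, 780 and 738 on HFD. With glucose it had 474, 414 and 451 on CGD and 828, 698 and 687 on HGD. All high-sugar libraries exceeded the controls of their own sugar, at 1.62-fold (log2 0.70 ± 0.10, adjusted p = 0.000108). The scaffold subunit Rpn1 had values of 903, 929 and 1010 on CFD, 1440, 1484 and 1185 on HFD, 934, 959 and 1110 on CGD, and 1417, 1507 and 1481 on HGD. It changed by 1.45-fold without overlap (log2 0.54 ± 0.090, adjusted p = 0.000258) and kept its call under each of the 5 scalings.

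In the secretory pathway, of 14 COPI and COPII coat components, which shape vesicles between ER and Golgi, 11 rose and none fell, 8 modestly, and all 14 had positive values with a median of 0.457 (0.249 and 2 calls with library totals). The COPI subunit deltaCOP had values of 895, 868 and 841 on CFD, 1132, 1153 and 1161 on HFD, 991, 888 and 1054 on CGD, and 1444, 1672 and 1391 on HGD, a change of 1.43-fold without overlap (adjusted p = 0.000374). The COPII cargo adaptor gho rose by 0.75 ± 0.10 on the log2 scale. Among 6 components of the signal recognition particle, which brings nascent secretory proteins to the ER, 5 rose with a median of 0.489, led by Srp54k (0.59 ± 0.095) and Srp72 (0.58 ± 0.092). The wider list of translocon, targeting and glycosylation genes had 6 rises of 16 and a median of 0.064, which was -0.144 with library totals.

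ER chaperones and genes of the unfolded protein response, which adjusts the folding capacity of the ER, had 9 rises of 18 and no fall. Of these 7 were modest and 6 were called only over both sugars. Xbp1, the transcription factor of this response, rose from 2554 to 2889 on CFD to 4372 to 5229 on HFD and from 2537 to 3527 on CGD to 5159 to 5814 on HGD (1.82-fold, log2 0.86 ± 0.11, adjusted p = 1.92e-05). Its kinase and RNase Ire1, the sensor that splices Xbp1 mRNA, had values of 280, 311 and 301 on CFD, 399, 417 and 334 on HFD, 309, 308 and 354 on CGD, and 444, 407 and 481 on HGD. The groups did not overlap within a sugar, and the change was 1.33-fold (log2 0.41 ± 0.092, adjusted p = 0.00256). The median of the list was 0.313 as deposited, 0.105 with library totals and 0.000783 after quantile normalization.

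The vacuolar proton pump, which acidifies lysosomes, had 9 rises and 1 fall among 17 subunits, 8 of the rises modest and 6 of the 10 calls made only over both sugars. Beside Vha16-1, they included Vha36-1 (0.68 ± 0.096), Vha55 (0.57 ± 0.11) and VhaAC39-1 (0.49 ± 0.10). The median was 0.285, and 0.0772 with library totals. Autophagy genes, whose products deliver cytoplasm to the lysosome, had 7 rises and 2 falls among 19, with a median of 0.175 that became -0.0324 with library totals. Atg7, the activating enzyme of autophagosome formation, had values of 551, 550 and 563 on CFD, 284, 211 and 266 on HFD, 447, 563 and 589 on CGD, and 269, 253 and 354 on HGD. It fell to 0.499-fold with no overlap (adjusted p = 1.3e-05), while Atg4, the protease of the same conjugation system, rose by 0.75 ± 0.092.

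Immune signalling showed a group of changes that were all modest. Of 14 genes of the Toll and Imd pathways, which carry signals from microbial sensors to NF-kB factors, 6 rose, all modestly, and none fell. The Toll adaptor Myd88 had values of 200, 226 and 241 on CFD, 336, 269 and 280 on HFD, 196, 177 and 238 on CGD, and 343, 262 and 366 on HGD. Its groups did not overlap (1.45-fold, log2 0.53 ± 0.12, adjusted p = 0.00236). Dredd, the caspase of the Imd pathway, Tak1, its kinase, and key, the regulatory subunit of the IKK complex, rose by 0.44 ± 0.10, 0.42 ± 0.099 and 0.55 ± 0.13 on the log2 scale. With library totals none of the 14 was called higher and 1 was called lower, while cyclic loess kept 5 rises.

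Growth signalling and sugar sensing held a mixture of larger and modest rises. Of 20 genes of the insulin and TOR pathways, which couple nutrients to growth, 12 rose and none fell, 6 modestly, with a median of 0.382 (0.174 and 6 calls with library totals). S6k, the ribosomal S6 kinase downstream of TOR, rose by 1.07 ± 0.12, the PI3-kinase catalytic subunit Pi3K92E by 0.96 ± 0.10 and Pdk1, its effector kinase, by 0.63 ± 0.11 on the log2 scale. The TOR inhibitor gig, fly TSC2, rose as well, by 0.58 ± 0.10. InR had values of 261, 374 and 406 on CFD, 371, 361 and 455 on HFD, 351, 362 and 284 on CGD, and 476, 393 and 465 on HGD. Its fructose groups overlapped and its glucose groups did not, and it passed the threshold without CFD 2, without CFD 3 or without HFD 2.

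Among the sugar sensors, Mio rose by 1.58 ± 0.12 on the log2 scale and its target sug, a zinc finger transcription factor, by 2.59 ± 0.17. The partner bigmax had values of 126, 156 and 134 on CFD, 202, 180 and 160 on HFD, 116, 117 and 180 on CGD, and 191, 207 and 181 on HGD. HFD 3 lay just above CFD 2 and HGD 3 just above CGD 3, so the groups did not overlap within a sugar, and the modest change (1.36-fold, log2 0.45 ± 0.12, adjusted p = 0.0103) was called only over both sugars. The lipogenic genes downstream did not need the joint comparison, since 11 of 13 were called in each sugar alone, and 12 of 13 were called over both with a median of 1.77.

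Genes of energy metabolism rose in part, by modest and by larger changes. Of 33 measured complex I subunits 13 rose and none fell, 9 modestly, and the median was 0.288 (0.0819 and 4 calls with library totals). ND23 had values of 137, 147 and 139 on CFD, 228, 182 and 198 on HFD, 161, 140 and 175 on CGD, and 338, 302 and 246 on HGD, without overlap and with a change of 1.63-fold (adjusted p = 0.000255). Complex III had 5 rises of 9, 1 of them modest, and the ATP synthase 6 of 12, 4 of them modest, with medians of 0.571 and 0.313. Cytochrome c oxidase had 1 rise of 9, CoIV (0.63 ± 0.12), and its median of 0.150 was -0.0575 with library totals. In the TCA cycle 9 of 16 genes rose and in beta-oxidation 13 of 15, of which 2 and 4 were modest.

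Of 20 splicing factors 15 fell and none rose, 4 modestly, with a median of -0.601, and 17 fell with library totals and 16 after cyclic loess. The Sm proteins, which form the core ring of spliceosomal ribonucleoproteins, had 6 falls of 7. SmG had values of 209, 131 and 153 on CFD, 81.1, 59.4 and 68.9 on HFD, 199, 210 and 181 on CGD, and 72.1, 67.5 and 89.0 on HGD. Its control and high-sugar values did not overlap within a sugar, and it changed by 0.411-fold (log2 -1.28 ± 0.13, adjusted p = 3.87e-06).

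The Mediator complex, which links transcription factors to RNA polymerase II, had 10 falls and no rise among 23 subunits, with 4 of the falls modest and 4 called only over both sugars. MED21 had values of 81.5, 55.5 and 42.4 on CFD, 23.9, 27.8 and 26.1 on HFD, 69.6, 78.6 and 64.3 on CGD, and 31.7, 22.2 and 25.4 on HGD. Within each sugar its highest high-sugar value lay under its lowest control value (0.417-fold, adjusted p = 3.19e-05). The median of the complex was -0.348 as deposited, -0.552 with library totals and -0.239 after cyclic loess, where 5 falls remained.

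DNA replication genes had 13 falls and 2 rises among 19, with a median of -0.476. All 6 subunits of the Mcm helicase fell, with a median of -0.662, and Mcm6 had values of 218, 172 and 173 on CFD, 111, 127 and 119 on HFD, 228, 242 and 234 on CGD, and 138, 159 and 131 on HGD. These groups did not overlap (0.623-fold, adjusted p = 7.91e-05). The polymerase clamp mus209, fly PCNA, fell by 1.06 ± 0.14, while Psf2 of the GINS complex rose by 1.09 ± 0.13 on the log2 scale. Of 21 ribosome biogenesis genes 9 fell and 2 rose, with NHP2, a component of H/ACA ribonucleoproteins, at -1.03 ± 0.13.

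Mitochondrial ribosomal proteins gave 16 falls and 4 rises among 72 as deposited, and 16 of these 20 calls were made only over both sugars. The share of falls was close to the 20.8% of all genes called lower, and the share of rises was below the 21.3% called higher. The median of -0.148 became -0.352 with library totals, where 24 fell, and -0.013 after cyclic loess, where 3 fell and 4 rose. The count of falls was 8 without CFD 1 and 19 without HFD 1. The fall with the smallest adjusted p was that of mRpS16, with values of 54.7 to 104 in the 6 controls and 31.5 to 50.8 in the 6 high-sugar libraries (log2 -0.79 ± 0.16, adjusted p = 0.00146). The muscle and hemocyte marker levels given above separate the same groups as these lists do, and their part in the lists' changes was not tested beyond the covariate fits. With the muscle level as a covariate 9 of 13 eIF3 subunits and 4 of 31 proteasome subunits were called higher, and 3 of 20 splicing factors and 0 of 23 Mediator subunits lower. With the hemocyte level these counts were 5, 2, 0 and 0.

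**Figure D4:**
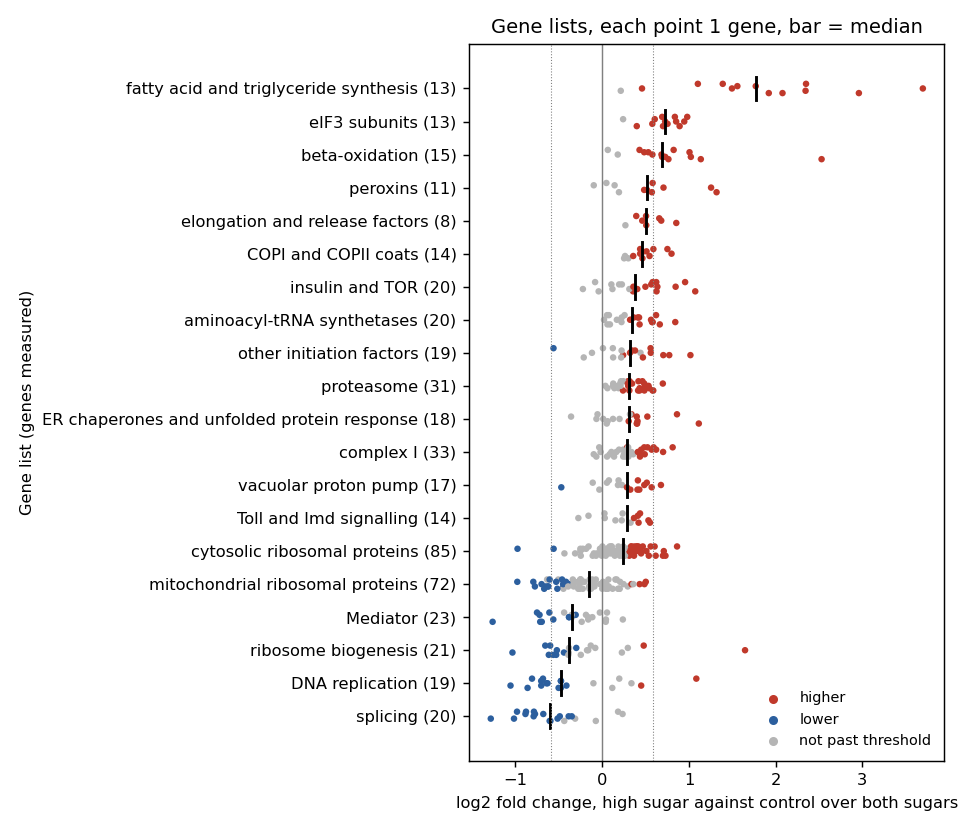
Log2 fold change of high sugar against control over both sugars (x axis) for each measured gene of 20 gene lists (y axis, members measured in parentheses), with called genes in red or blue, the others in grey and a bar at the list median; dotted lines mark 1.5-fold. Of the 20 called proteasome subunits 18 lie between the zero line and the 1.5-fold line, but 2 of the 12 called eIF3 subunits do, and the medians of the splicing, replication, biogenesis and Mediator lists lie below zero.

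**Figure D5:**
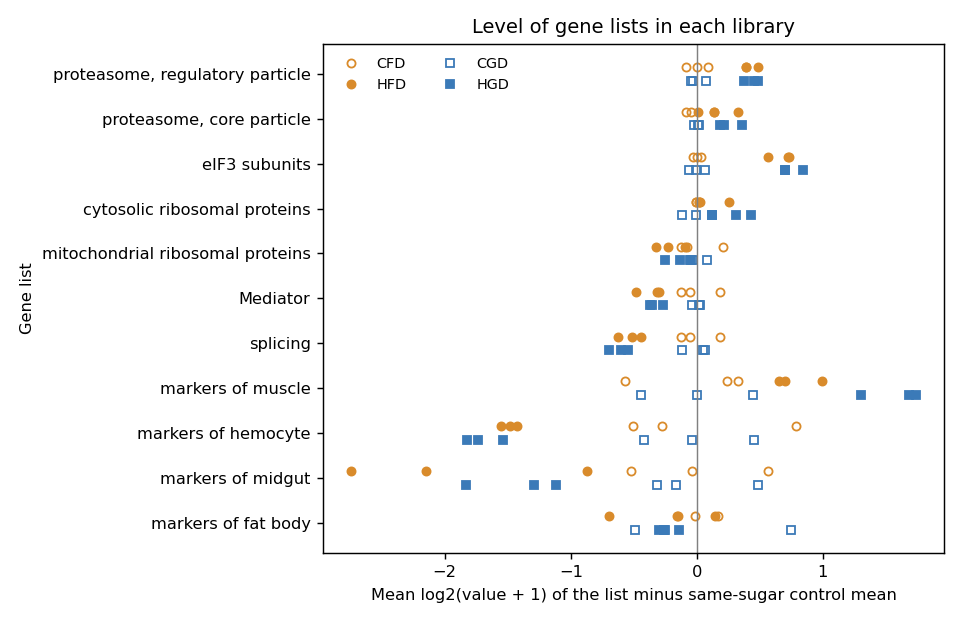
Mean log2(value + 1) of selected gene lists in each library minus the mean of the 3 control libraries of the same sugar (x axis); open symbols are controls and filled symbols high sugar. The regulatory particle of the proteasome lies at 0.372 to 0.484 in high-sugar libraries and eIF3 at 0.563 to 0.841, clear of their controls, while the fat body markers of high-sugar and control libraries overlap.

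A core of modest calls held under every leave-one-out and every scaling tried. Of the 1532 modest calls 944 were kept on leaving out each library in turn (652 higher and 292 lower). Under each of 5 scalings 368 were kept (28 higher and 340 lower), and 266 under both (28 higher and 238 lower). Library totals set most of this split, since they kept 31 of the 956 modest rises and all 576 falls. Median of ratios kept 929 rises and 575 falls, and removal of the length trend 859 and 482. Cyclic loess kept 421 and 372, and quantile normalization 412 and 384. The split is therefore no measure of whether rises or falls are the more robust. The 28 rises all lay just under the 1.5-fold limit, from 1.451-fold (CLIP-190) to 1.499-fold (lkb1). Falls of the core included changes as small as 0.832-fold (pnt). The 28 rises were all called in at least 1 single-sugar comparison, whereas 99 of the 238 falls were called only over both sugars and 59 of those had no overlap within each sugar. The following members were chosen after their values were seen. Rises of the core included the eIF3 subunit eIF-3p40 (0.58 ± 0.079), the synthetases Aats-glupro (0.56 ± 0.081) and Aats-asp, Srp72, Rpn1, Vha55, gig, and lkb1, a kinase upstream of AMPK. Falls included arm, the fly beta-catenin (-0.51 on the log2 scale), Su(var)205, heterochromatin protein 1 (-0.55), CTPsyn, CTP synthase (-0.51), Pu, GTP cyclohydrolase (-0.54), and Nrx-IV, a septate junction protein (-0.48).

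At the other end, the 5 largest rises and 5 largest falls of genes averaging 100 or more passed in each sugar alone as well as over both. Cyp4e3, a cytochrome P450, had a log2 fold change of 8.62 ± 0.38, and phm, a P450 of ecdysone synthesis in the ring gland, one of -3.53 ± 0.19. These 2 genes had values of 8.34 and -3.49 for fructose alone and 8.91 and -3.56 for glucose alone. The joint comparison added little for genes of this size, and of its 1249 added calls 76 lay between 2-fold and 4-fold and none above.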

How the data were processed

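RNA from 12 fat body preparations was sequenced, with 3 biological replicates of each of 4 diets, and 1 table of 9500 genes was used. Its values have the unit signal: the authors adjusted reads per gene to a common library size, and deposited the results. From the values, this was done separately for each sugar in the form of pseudo-counts, as the authors' tool edgeR makes them. The methods describe HTSeq counting against an Ensembl annotation, whereas build dm3 with Cufflinks 1.1.0, Bowtie 0.12.7 and TopHat 1.3.2 is listed in the notes of the submitters. Which route made the table, and whether it used strand, is not given in the sources used. The adjustment evens out depth, but the values of the shallowest library, HFD 2, carry more counting noise. Columns of the authors' own fold changes and p-values were not used. All 12 value columns were matched to samples by name.

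Values were analysed as log2(value + 1) in limma 3.58.1 (R 4.3.3) with moderated variances and a mean-variance trend, terms for sugar and concentration, and Benjamini-Hochberg adjustment over 9500 genes at 0.05. The same fit within a sugar used its 6 libraries, and a product term compared the responses to the sugars. No further filter removed a gene, but the genes deposited were only ones with at least 1 recovered read in every library. The pseudocount of 1 shrinks fold changes of rare genes. Whole reads were recovered by inverting the adjustment, with 100% of values returned within 0.0001. They served only for depth, shares of reads, limma-voom and the simulation. Tables and figures were made in Python 3.11.15. The fit was also run on simulated counts with 200 changed genes. These had less spread between replicates than the real libraries and no trend with expression level. The simulation therefore cannot tell how the modest calls behave under such a trend. Gene symbols are those of the table, and 9073 of 9500 identifiers were in the Ensembl annotation BDGP 6.54, release 115, which gave transcript lengths and chromosome arms. No coordinates are given, because that build differs from dm3.

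The members and gene lists were chosen with earlier results of these data known. Named genes followed a rule: the 10 rises and 10 falls with the smallest adjusted p among called genes under 1.5-fold that neither sugar called alone, with no overlap within each sugar, a mean value of at least 100 and a symbol other than a CG or CR number; the 5 most abundant rises and falls of that class without the condition on the symbol; the 5 largest rises and falls; up to 4 members of each of 46 lists by smallest adjusted p; and InR and Dcr-2. Further groupings of list members, 12 in number, were made after values were seen. Alternatives were rescaling by median of ratios or library totals, minimum mean values of 10 and 50, pseudocounts of 0.1 and 5, no sugar term, 4 diet groups, limma-voom, no variance shrinkage, robust variances, a replicate block, a muscle marker covariate and leaving out each library. Cyclic loess, quantile normalization, removal of the transcript length trend and a hemocyte covariate were added after seeing the data. Promoter sequences were not analysed here.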

Additional observations from a re-analysis of the deposited data

How the results depend on the processing

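Leaving out 1 library at a time gave 3472 (without CGD 2) to 3982 called genes over both sugars, 1772 to 2010 of them higher and 1700 to 1972 lower, and 1195 to 1426 modest calls, 770 to 922 higher and 415 to 504 lower. The single-sugar counts were less stable, at 906 (without HFD 2) to 1618 for fructose, with 1035 without CFD 2, and at 1337 (without CGD 2) to 2662 for glucose, with 1363 without CGD 1 and 1626 without HGD 3. Without variance shrinkage they were 537 and 1007. Library totals gave 926 rises and 694 modest calls, 267 of them higher, and a minimum mean value of 50 gave 1071 falls among fewer genes tested. The muscle covariate left 830 calls (468 higher and 362 lower), of which 3 were modest, 2 higher and 1 lower. The hemocyte covariate left 523 calls (337 higher and 186 lower) and 0 modest ones, in either direction. The cause of these losses was not tested. The other settings kept each of these counts within 1.5 times.

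Direction changed for a few named genes, none of which was called after the change. With the muscle covariate the values were 0.022 for DOR, -0.094 for InR, -0.23 for Sgs3, -0.42 for Sgs4, -0.51 for Sgs7 and -0.90 for Sgs8. With the hemocyte covariate they were 0.20 for DOR, 0.16 for aralar1, 0.22 for CoVIIc, -0.035 for Nup358, -0.034 for wupA, -0.60 for Sgs3, -0.83 for Sgs4, -0.23 for Sgs7, -0.82 for Sgs8, -0.20 for Lcp2, 0.20 for Rfabg and -0.49 for InR. Syt1 was at -0.041, -0.11 and -0.11 with library totals, cyclic loess and quantile normalization, n-syb at 0.042 and 0.024 with the last 2, and elav at -0.21 to 0.074 on leaving out a library, with 0.031 without HFD 1 and 0.074 without HGD 2. A replicate block gave 3914 calls and 1453 modest calls, with 1893 for fructose and 2197 for glucose. Deviations of libraries with the same number had correlations of 0.0531, 0.0103 and 0.206 for fructose and -0.0549, 0.0188 and -0.0402 for glucose. Libraries with different numbers had -0.126 to 0.0797 for fructose and -0.0346 to 0.0604 for glucose. The correlations do not settle whether the numbers pair samples. Depth limits HFD 2 most, with a median of 32 reads per gene against 74 to 138 in the other libraries, and changes of low genes there are the least certain.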

Other observations

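Further gene groups were counted, to be read beside the 21.3% of all genes called higher and the 20.8% called lower. The shares by abundance given above apply here as well. Of 11 peroxins, which import proteins into peroxisomes, 7 rose and none fell, with a median of 0.517 that stayed at 0.309 with library totals and 0.543 after cyclic loess, and Pex10, a ubiquitin ligase of the import machinery, rose 2.39-fold (adjusted p = 1.47e-05). Of 7 circadian clock genes 4 rose, among them tim, the partner of period, at 1.15 ± 0.21, and vri, a clock-controlled repressor, at 0.44 ± 0.089. The tim values were 15.1 to 20.4 on CFD, 30.2 to 70.6 on HFD, 24.9 to 53.0 on CGD and 67.9 to 82.6 on HGD, without overlap within a sugar. Of 13 antioxidant genes 7 rose and 1 fell, 5 of the rises modest, with the glutathione synthesis genes Gclc and Gclm at 1.13 ± 0.12 and 0.49 ± 0.10.

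Heat shock and cytosolic chaperone genes had 8 falls and 2 rises among 20, with Hsp27 at -1.18 ± 0.14, Hsp26 at -1.46 ± 0.26 and Hsp67Bc at -1.74 ± 0.22. With library totals 9 fell and none rose. Of 8 subunits of the CCT chaperonin, which folds actin and tubulin, 3 fell as deposited and 7 after cyclic loess. Of 13 glycolytic genes 8 rose and none fell, with a median of 0.556, and of 11 genes of gluconeogenesis, trehalose and glycogen 9 rose and none fell, with a median of 0.901 and 8 rises with library totals. The other lists had 4 rises and 6 falls among 22 nuclear pore genes, 3 and 4 among 17 ecdysone response genes, 1 and 4 among 15 genes of amino acid breakdown, 1 and 3 among 11 of purine synthesis, and 5 and 1 among 9 lipase and lipid droplet genes. Apart from the lipase and lipid droplet rises, none of these counts lay far above the shares over all genes as deposited. Rescaling changed this for some. After cyclic loess 8 of the 11 purine synthesis genes, 6 of the 15 of amino acid breakdown and 7 of the 22 nuclear pore genes fell. Quantile normalization gave 8, 7 and 8 falls, and library totals 5, 4 and 8. Of the remaining marker lists, the 6 salivary gland genes had 1 rise, the 5 cuticle genes 3 rises and 1 fall, piwi of the germline and phm of the ring gland a fall each, and the 5 neuronal genes no call.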
